A study of Drosophila melanogaster with 24 samples.

Results

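Among the 17476 genes counted in sorted mesodermal cells of Drosophila melanogaster embryos, 75 genes met a rule for genes shifted in the same direction from wild-type in all 5 other genotypes. They were selected on the measured values themselves. A gene was a member when its highest genotype mean reached 2 CPM, that is 2 counts for each 1e+06 counted after scaling, and every one of the 5 other means was at least 1.5 times the wild-type mean, or every one was at most 0.667 times it. In 67 of the 75 all 5 means were strictly above or below wild-type, and in 8 the wild-type mean and at least 1 other mean were both 0, which the rule let pass. Of the 8489 genes that reached 2 CPM in a genotype, 32 were higher members and 43 were lower members, which together were 0.883% of those genes. The 5 comparisons share the same 4 wild-type samples, so a value that was unusual in wild-type enters all of them, and the shift from wild-type is given below as a description with no test.

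RNA was measured in 24 samples, 4 of each of 6 genotypes, from cells sorted for GFP fluorescence out of embryos at stage 11 to early stage 12 that had been aged at 25 °C. All genotypes carried twi-GAL4, which drives expression in cells with the mesodermal factor Twist, and UAS-2EGFP, the GFP reporter that it activates. Wild-type embryos were twi-GAL4 UAS-2EGFP/+. The jumu loss-of-function embryos had a chromosome with twi-GAL4 and Df(3R)Exel6157 over another with UAS-2EGFP and Df(3R)Exel6157, and so were homozygous for a deficiency that removes jumu. The CHES-1-like loss-of-function embryos were homozygous, or hemizygous if male, for the null deficiency Df(1)CHES-1-like1 of chromosome X, and were otherwise twi-GAL4 UAS-2EGFP/+. The double loss-of-function embryos carried this deficiency in the same way and were homozygous for Df(3R)Exel6157. In the overexpression embryos, twi-GAL4 UAS-2EGFP was over UAS-jumu or over UAS-CHES-1-like, so that the Fox gene was switched on in Twist-expressing cells. The sample descriptions of both overexpression genotypes give the earlier stage as late stage 11 and those of the other genotypes as stage 11. Wild-type embryos came from a cross of the twi-GAL4 UAS-2EGFP strain to a wild-type strain, whereas jumu loss-of-function embryos came from 2 recombinant strains that each carried the deficiency over the TM3 balancer. These 2 genotypes therefore had different parents, and the study does not describe the crosses of the other genotypes. By the labels, CHES-1-like loss-of-function and both overexpression genotypes carried twi-GAL4 and UAS-2EGFP together, as wild-type did. In jumu loss-of-function and the double, each stood on a separate chromosome with the deficiency. The parental strains cannot be told apart from the genotype in any comparison below.

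Jumu and CHES-1-like are transcription factors of the Forkhead box (Fox) family, which bind DNA through a winged-helix domain and act in the dividing progenitors of the embryonic heart. The mesoderm, the germ layer marked here by Twist, gives rise to the heart, body wall and gut muscle, fat body and blood cells. Fly stocks that have been kept apart can differ at many sites in the genome, and samples from different crosses can therefore differ in expression apart from the mutation under study.

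Total counts ranged from 15197022 to 72519855 per sample, and 3 counts in a sample corresponded to 0.0371 to 0.292 CPM. The targeted genes moved in the direction of the labels in every sample. CHES-1-like was at 0.734% of wild-type in CHES-1-like loss-of-function, 0.772% in the double and 983% in CHES-1-like overexpression. jumu was at 553% in jumu overexpression, but it remained at 24.4% of wild-type in jumu loss-of-function (27.1 to 31.4 CPM) and at 17.9% in the double, which goes against the complete deletion of jumu that the labels give. The genotypes with this deficiency are named below as labelled, and the source of these reads was not tested. The summed level of 13 mesoderm markers lay between 1278 and 1432 CPM in the 6 genotype means, and 12 of the 13 were detected above 1 CPM in every genotype, eve being the exception. The largest terms of the sum were Mef2 and how, at 579 and 348 CPM in wild-type, so it says little about the other markers. Across the genotype means, Hand ranged from 2.83 to 9.55 CPM, bap from 3.98 to 12.1 and zfh1 from 118 to 202, whereas twi ranged from 20.1 to 27.3. No member was on any of the lists of mesoderm, neural, epidermal, hemocyte, germline, tracheal, endoderm or yolk markers. In these bulk samples, fewer cells of a type and less RNA per cell cannot be told apart.

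The name given to the set, genes shifted alike, fitted few of its members in size. The 5 non-wild-type means lay within 1.5 times of each other in 5 of the 43 lower members and in 2 of the 32 higher members. Of all genes that reached 2 CPM, 37.4% met this limit, but those genes include well counted ones. Among the lower members, 9 had all 5 of these means under 1 CPM and 8 had a genotype with at most 3 counts. Few counts alone can part such means, so the 37.4% is not a like comparison. Of the higher members, 16 reached 2 CPM in 1 genotype alone, so their unevenness was fixed by the selection and is not compared. These even members were MCTS1 and CG17129 among the higher members and CG43759, Sh, GNBP1, CG31030 and CG42288 among the lower members. The largest of the 5 means exceeded the smallest by more than 10 times in 16 lower members, and in 18 higher members, where the same limit applies. A test of any difference among the 5 non-wild-type genotypes was called at a false discovery rate below 0.1 for 35 of the 43 lower members. These were 81.4% of them, near the 75.2% of all 12234 genes tested, so nothing particular to the members is read from this test. All 43 lower members reached 2 CPM through wild-type, which this test left out. Of the 32 higher members 31 were called, but many of them reached 2 CPM only through a genotype where they were high, so that a difference among the 5 was fixed by the selection and nothing is read from that count. The 9 members that were not called were MCTS1, CG43759, Sh, CG42288, GNBP1, Pvf1, CG31030, CG43088 and CG14304, the last with an adjusted p of 0.103 by edgeR.

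**Figure D1:**
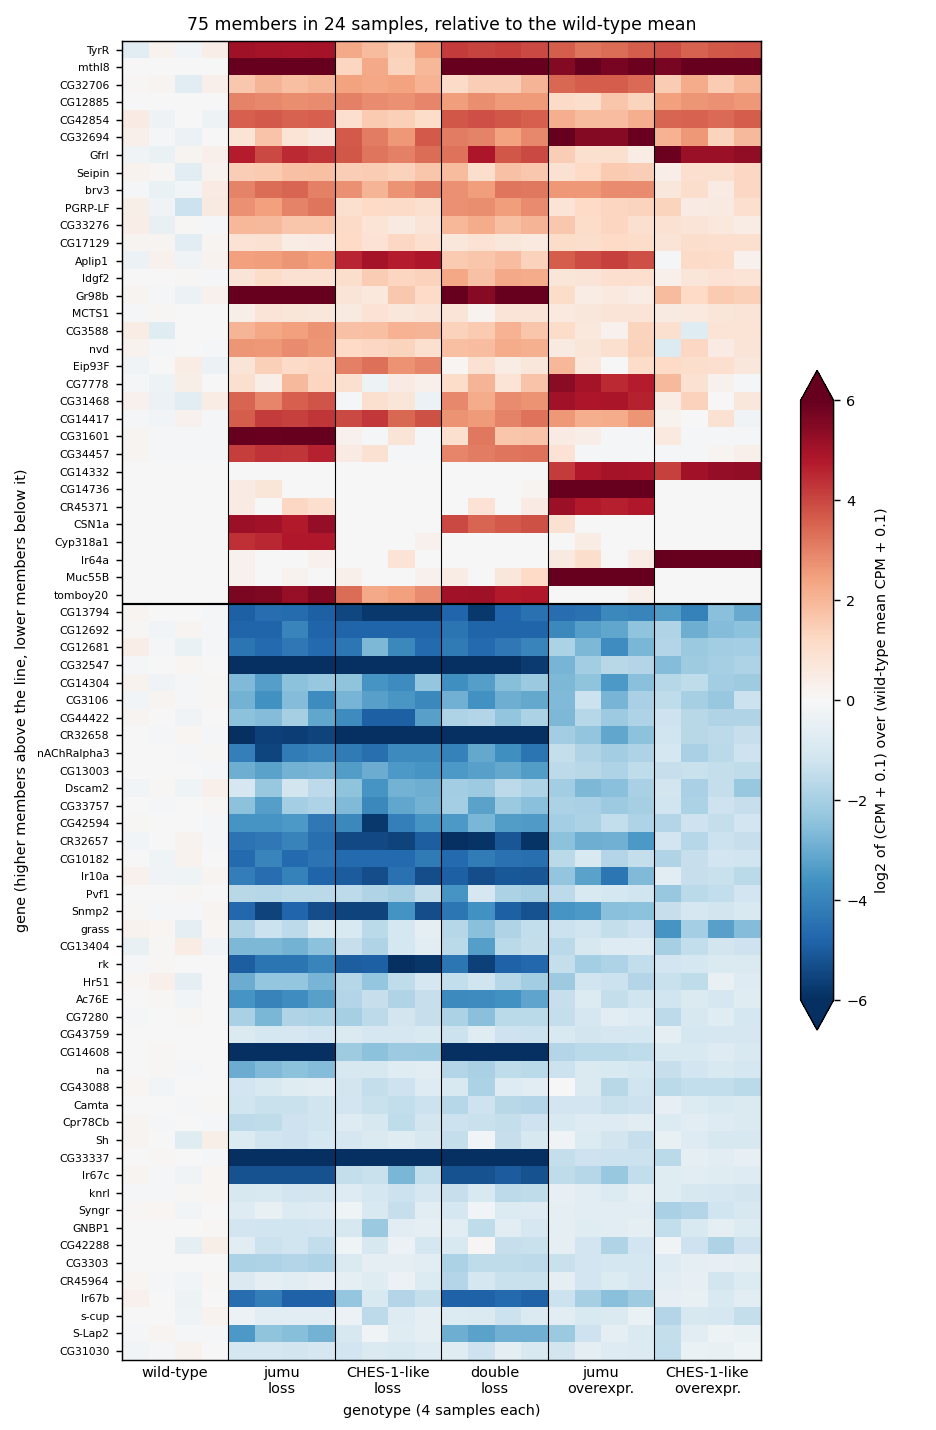
Level of each member (rows) in each of the 24 samples (columns, 4 per genotype) as log2 of CPM plus 0.1 over the wild-type mean plus 0.1. Higher members (32) stand above the line and lower members (43) below it, each ordered by the shift of the genotype closest to wild-type, and colours saturate at 6 log2 units. Most rows are uneven across the 5 non-wild-type genotypes, and the lower members are darkest in the loss-of-function columns.

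MCTS1, which encodes a factor for re-initiation of translation, had the most even shift. Its level was 28.8, 32.0, 31.4 and 29.8 CPM in the 4 wild-type samples. In the non-wild-type genotypes it was 48 ± 5.8 CPM (SD, n = 4) for jumu loss-of-function, 50.4 ± 4.79 for CHES-1-like loss-of-function, 47.6 ± 8.28 for the double, 49.3 ± 2.91 for jumu overexpression and 48.2 ± 3.49 for CHES-1-like overexpression. All 20 non-wild-type samples lay above all 4 wild-type samples, the lowest being replicate 2 of the double at 35.2 CPM. The mean of both overexpression genotypes differed from the mean of the 3 loss-of-function genotypes by 0.01 (log2, SE 0.07), and the test across the 5 genotypes gave an adjusted p of 1 by edgeR.

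CG43759 showed the same evenness in the other direction. Its level was 74.6, 76.0, 77.6 and 75.1 CPM in wild-type. Means of the 5 other genotypes were 37.4 ± 3.29, 39.4 ± 2.12, 34.7 ± 7.4, 37.5 ± 2.12 and 40.7 ± 6.99 CPM in the order jumu loss-of-function, CHES-1-like loss-of-function, double, jumu overexpression and CHES-1-like overexpression. No sample of these 20 exceeded 51.2 CPM, and the genotypes lay between 45.8% and 53.7% of wild-type. A difference among the 5 was not called (adjusted p 0.487, edgeR).

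Sh, the Shaker voltage-gated potassium channel, was also even but its groups overlapped. Its wild-type samples were at 3.25, 2.95, 1.70 and 3.66 CPM, and the third of these lay below the highest sample of 4 of the 5 other genotypes. Genotype means were between 45.7% and 57.3% of wild-type. GNBP1, a recognition protein of the innate immune system, was at 3.97 ± 0.142 CPM in wild-type and between 42.8% and 64.2% of it elsewhere. CG17129 was at 3.25 ± 0.807 CPM in wild-type and between 5.36 ± 0.935 and 7.17 ± 0.345 CPM in the other genotypes, and here the small differences among the 5 were called (adjusted p 0.00579, edgeR).

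**Figure D2:**
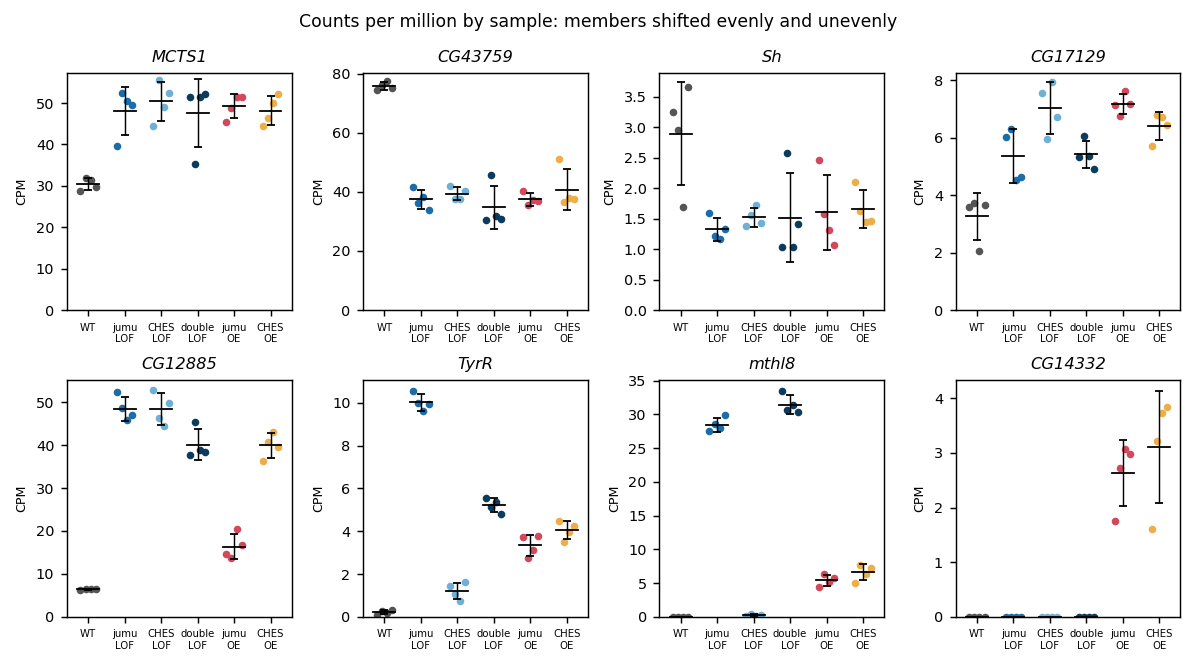
CPM of 8 members in each sample (points), with the mean (line) and SD (bar) of the 4 samples of each genotype (WT, wild-type; LOF, loss-of-function; OE, overexpression). MCTS1, CG43759, Sh and CG17129 moved by a like amount in the 5 genotypes, CG12885, TyrR and mthl8 were higher in all 5 by unequal amounts, and CG14332 was detected only in the overexpression samples.

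Among the higher members, the wild-type level was mostly near 0. It was under 1 CPM in 27 of the 32, and 9 of them had no count in any wild-type sample. Any non-zero mean passed the selection for those genes, and 0 against 0 passed as well. Only 5 higher members, CG12885, Seipin, CG17129, Idgf2 and MCTS1, reached 2 CPM in all 5 non-wild-type genotypes, and 16 reached it in 1 genotype alone. In 13 of the 32 all 20 non-wild-type samples lay above all 4 wild-type samples, as did 0.577% of all genes that reached 2 CPM. The number among the members follows from the selection. Adding 0.1 CPM to every mean before applying the rule, an alternative chosen after seeing the data, kept 18 of the 32.

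CG12885 was the clearest of the higher members with a measurable wild-type level. Wild-type samples were at 6.33, 6.52, 6.43 and 6.56 CPM in wild-type. It reached 48.5 ± 2.79 CPM in jumu loss-of-function, 48.4 ± 3.76 in CHES-1-like loss-of-function, 40.1 ± 3.59 in the double, 39.9 ± 2.84 in CHES-1-like overexpression and only 16.3 ± 2.97 in jumu overexpression. The lowest jumu overexpression sample, at 13.6 CPM, was still above the highest wild-type sample, and the highest, at 20.4 CPM, was below every sample of the 4 other non-wild-type genotypes. Jumu overexpression differed from jumu loss-of-function by a log2 difference of -1.57 (SE 0.1, adjusted p 4.31e-11, edgeR). Gr98b, the gustatory receptor gene that follows CG12885 on the same strand of chromosome arm 3R, had another order, with 17.0 ± 1.63 CPM in jumu loss-of-function, 9.67 ± 2.91 in the double and no more than 0.278 ± 0.0748 in the 3 other non-wild-type genotypes, against 0.0292 ± 0.0239 in wild-type.

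With 0.1 CPM added to each mean, the higher member furthest from wild-type in its least-shifted genotype was TyrR, a G protein-coupled receptor for tyramine. By plain fold CG32694 exceeded it, at 6.17 times wild-type in its least-shifted genotype against 5.72 for TyrR. Wild-type samples of TyrR were at 0.0992, 0.267, 0.175 and 0.309 CPM. Jumu loss-of-function samples were at 10.5, 10, 9.62 and 9.94 CPM, and double loss-of-function samples at 5.57, 5.15, 5.36 and 4.80 CPM. CHES-1-like loss-of-function was the closest to wild-type, with 0.749 to 1.62 CPM, and both overexpression genotypes lay in between at 3.34 ± 0.492 and 4.04 ± 0.42 CPM. No sample overlapped with wild-type.

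mthl8, one of the methuselah-like G protein-coupled receptors, had a similar order with a larger range. No read was counted in any wild-type sample. Its level was 27.5, 28.5, 28.0 and 29.9 CPM in jumu loss-of-function and 33.4, 30.6, 31.3 and 30.3 CPM in the double, at least 2001-fold and 2207-fold higher than the 3 counts that the pooled wild-type samples could have missed. It was at 5.42 ± 0.82 and 6.58 ± 1.17 CPM in jumu and CHES-1-like overexpression. In CHES-1-like loss-of-function it was only 0.244 ± 0.12 CPM, at least 17.2-fold above that limit, and the CHES-1-like loss-of-function samples did not overlap with those of any other genotype.

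Other higher members differed in which genotype was highest. CG42854 was at 5.42 ± 0.242 CPM in jumu loss-of-function, 5.98 ± 0.526 in the double and 5.12 ± 0.37 in CHES-1-like overexpression, but 1.02 ± 0.209 and 1.76 ± 0.241 for CHES-1-like loss-of-function and jumu overexpression. Gfrl, a relative of the receptors for glial cell line-derived neurotrophic factor, was highest in CHES-1-like overexpression at 10.3 ± 2.78 CPM and lowest in jumu overexpression at 0.387 ± 0.139, against 0.143 ± 0.0551 in wild-type. Aplip1, a scaffold protein that links JNK signalling to the kinesin motor, was highest in CHES-1-like loss-of-function at 12.4 ± 1.7 CPM and at 0.628 ± 0.289 in CHES-1-like overexpression, where its samples overlapped with those of wild-type.

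Seipin and Idgf2 were higher in every genotype at a moderate level. Seipin, which encodes an endoplasmic reticulum protein needed for lipid droplet assembly, was at 3.72 ± 0.942 CPM in wild-type and between 7.23 ± 1.64 (CHES-1-like overexpression) and 12.0 ± 1.38 CPM (jumu loss-of-function). Its neighbour brv3, a gene of the polycystin-like channel family, was at 0.406 ± 0.146 CPM in wild-type, 0.842 ± 0.232 in CHES-1-like overexpression and between 3.11 ± 0.867 and 4.64 ± 0.827 in the 4 other genotypes. The ends of these genes overlap by annotation on opposite strands, and whether the counting used the strand is not given in the sources used here, so that reads of one cannot be told from reads of the other in the shared bases. Idgf2, a secreted chitinase-like growth factor, was at 4.59 ± 0.235 CPM in wild-type, 7.46 ± 1.22 in CHES-1-like overexpression and 20.9 ± 3.45 in the double. PGRP-LF, a membrane-bound inhibitor of the immune deficiency (IMD) pathway, and nvd, the neverland oxygenase of ecdysone synthesis, were each highest in jumu loss-of-function, at 2.70 ± 0.635 and 2.85 ± 0.193 CPM. Eip93F, an ecdysone-induced transcription factor, was instead highest in CHES-1-like loss-of-function at 2.90 ± 0.537 CPM.

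Several higher members were present in 1 or 2 genotypes and met the rule elsewhere through a few reads or none. Ir64a, an ionotropic receptor of olfactory neurons, had no wild-type count, 16.7 ± 2.25 CPM in CHES-1-like overexpression and no more than 0.0478 ± 0.0459 in any other genotype. Muc55B, a mucin, was at 16.0 ± 0.813 CPM in jumu overexpression and had no count in CHES-1-like overexpression. CG14736 was at 9.67 ± 1.67 CPM in jumu overexpression, and CG14332 was at 2.63 ± 0.602 and 3.10 ± 1.03 CPM in jumu and CHES-1-like overexpression with no count in the 16 other samples. On the loss-of-function side, Cyp318a1, a cytochrome P450 gene, was at 2.39 ± 0.342 CPM in jumu loss-of-function and had no count in the double. CSN1a, a paralogue of a COP9 signalosome subunit, was at 3.25 ± 0.456 and 1.23 ± 0.176 CPM in jumu loss-of-function and the double, and tomboy20, a paralogue of the mitochondrial import receptor Tom20, was at 4.50 ± 0.555 and 2.94 ± 0.346 CPM in the same genotypes. These genes were counted as members by the rule but did not move alike.

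The lower members had at least 2 CPM in wild-type by construction. In 38 of the 43, all 20 non-wild-type samples lay below all 4 wild-type samples, against 1.35% of all genes that reached 2 CPM. The number among the members again follows from the selection. The median lower member was at 13.7% of wild-type in jumu loss-of-function, 29.9% in CHES-1-like loss-of-function, 15.5% in the double, 35.7% in jumu overexpression and 42.4% in CHES-1-like overexpression. The median over all genes that reached 2 CPM lay between 99.6% and 101% in the same genotypes. CHES-1-like overexpression had the highest of the 5 means in 28 of the 43. Both overexpression means stood above all 3 loss-of-function means in 27 lower members and below them in 0.

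**Figure D3:**
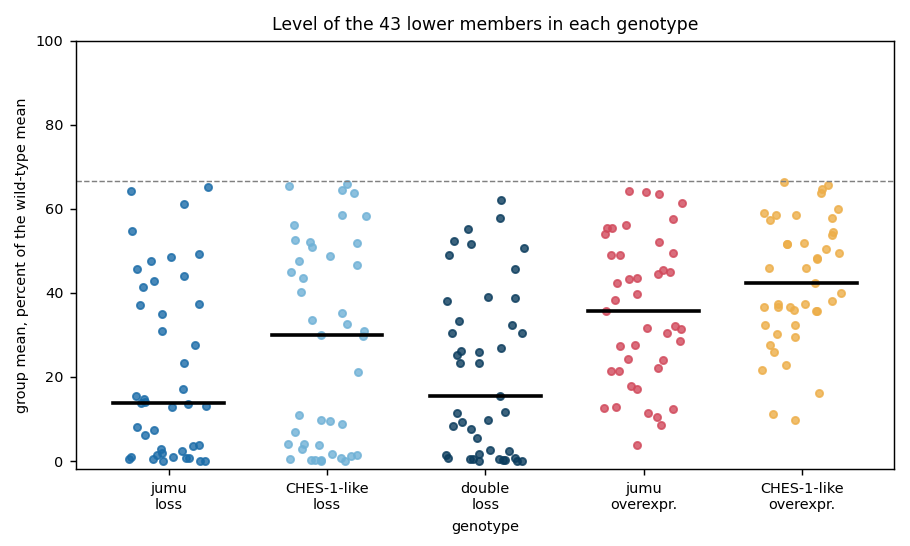
Mean level of each of the 43 lower members in the 5 non-wild-type genotypes as percent of its wild-type mean (points, spread sideways at random), with the median (line) and the upper limit of the rule (dashed). The medians are 13.7%, 29.9%, 15.5%, 35.7% and 42.4% from left to right, and many loss-of-function points lie near 0.

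In 14 lower members the level was at most 10% of wild-type in each of the 3 loss-of-function genotypes, and in 12 of these both overexpression genotypes stayed above 10%, a limit that was chosen after the values were seen. The 12 were CG33337, CG10182, CG32547, CR32658, CR32657, Ir10a, Snmp2, rk, nAChRalpha3, CG42594, CG12681 and CG3106. CG33337 was at 18.1, 18.9, 18.5 and 17.5 CPM in wild-type. In jumu overexpression it was at 6.64, 7.54, 7.33 and 7.48 CPM, and in CHES-1-like overexpression at 5.87, 12.4, 11.4 and 13.1 CPM. Of the 12 loss-of-function samples, 8 had no count and the highest was at 0.0974 CPM, so these samples did not overlap with any other.

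CG32547 behaved in a like way. Its wild-type level was 16.3 ± 0.882 CPM, and it was at 3.97 ± 1.25 and 3.72 ± 0.791 CPM in jumu and CHES-1-like overexpression. The 3 loss-of-function means were 0.0951 ± 0.0219, 0.047 ± 0.045 and 0.0829 ± 0.091 CPM, and none of their 12 samples exceeded 0.208 CPM. The noncoding gene CR32658 was at 20.2 ± 1.24 CPM in wild-type, 3.58 ± 0.99 and 7.38 ± 1.16 in the overexpression genotypes and no more than 0.287 ± 0.0561 in the loss-of-function genotypes. Its noncoding neighbour CR32657 followed with 8.19 ± 0.937, 1.02 ± 0.307, 3.11 ± 0.481 and at most 0.322 ± 0.0693 CPM. Each overlaps other annotated genes on the same strand, so that their counts are uncertain.

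Receptors were found in this group as well. nAChRalpha3, a subunit of the nicotinic acetylcholine receptor, was at 4.52, 4.45, 4.15 and 4.64 CPM in wild-type. It was at 1.23 ± 0.26 and 1.59 ± 0.446 CPM in jumu and CHES-1-like overexpression, and at most 0.248 ± 0.146 CPM in the loss-of-function genotypes. rk, the receptor for the tanning hormone bursicon, was at 8.71 ± 0.399 CPM in wild-type, 2.65 ± 0.522 and 4.39 ± 0.446 in the overexpression genotypes, and 0.321 ± 0.116, 0.11 ± 0.0976 and 0.217 ± 0.107 in jumu, CHES-1-like and double loss-of-function. Snmp2, a CD36-like membrane protein, was at 4.67 ± 0.411 CPM in wild-type and differed between the overexpression genotypes, with 0.537 ± 0.252 for jumu and 2.15 ± 0.315 for CHES-1-like. CG13794 and CG12692 were also under 10% in all 3 loss-of-function genotypes, and were the lower members furthest from wild-type in the closest genotype, at 9.73% and 16.1% in CHES-1-like overexpression.

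A second pattern set the genotypes with the jumu deficiency apart. Ac76E, CG14608, Ir67b and Ir67c were at most 10% of wild-type in jumu loss-of-function and in the double, but between 21.1% and 33.5% in CHES-1-like loss-of-function. CG14608, named thw in the annotation, was the most counted of them, with 323, 348, 324 and 335 CPM in wild-type. It was at 0.0613, 0.573, 0.225 and 0.122 CPM in jumu loss-of-function and at 0.103, 0.449, 0.389 and 0.493 CPM in the double. CHES-1-like loss-of-function samples were at 76.8, 59.5, 73.1 and 71.1 CPM. It was at 98.5, 108, 108 and 114 CPM in jumu overexpression and at 178, 177, 194 and 175 CPM in CHES-1-like overexpression. The groups fell into a ladder without overlap, except that jumu loss-of-function and the double overlapped each other.

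The adjacent ionotropic receptor genes Ir67b and Ir67c resembled CG14608, but without a gap between CHES-1-like loss-of-function and jumu overexpression. Ir67c was at 3.59 ± 0.397 CPM in wild-type, 2.15 ± 0.106 in CHES-1-like overexpression, 1.03 ± 0.264 in jumu overexpression and 1.07 ± 0.419 in CHES-1-like loss-of-function. It had no count in the 4 jumu loss-of-function samples and 0.00374 ± 0.00748 CPM in the double. Ac76E, an adenylyl cyclase, was at 12.9 ± 0.892 CPM in wild-type, 0.969 ± 0.246 in jumu loss-of-function, 1.00 ± 0.249 in the double and between 4.33 ± 0.689 and 6.69 ± 0.894 in the 3 other genotypes. S-Lap2, a leucyl aminopeptidase of the sperm, lay just inside the limit of the rule and was at 0.924 ± 0.296 and 0.796 ± 0.0962 CPM in jumu loss-of-function and the double, and at 4.52 ± 1.01 in CHES-1-like loss-of-function, against 6.85 ± 0.521 in wild-type. The sodium leak channel gene na was at 48.3 ± 2.08 CPM in wild-type, 7.52 ± 1.11 in jumu loss-of-function and 27.1 ± 2.93 in CHES-1-like loss-of-function, with the double in between at 14.7 ± 1.84. CG3303, named EndoU in the annotation, was at 46.8 ± 0.888 CPM in wild-type, 12.9 ± 0.514 in jumu loss-of-function, 15.2 ± 1.85 in the double and 29.8 ± 2.71 in CHES-1-like loss-of-function.

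**Figure D4:**
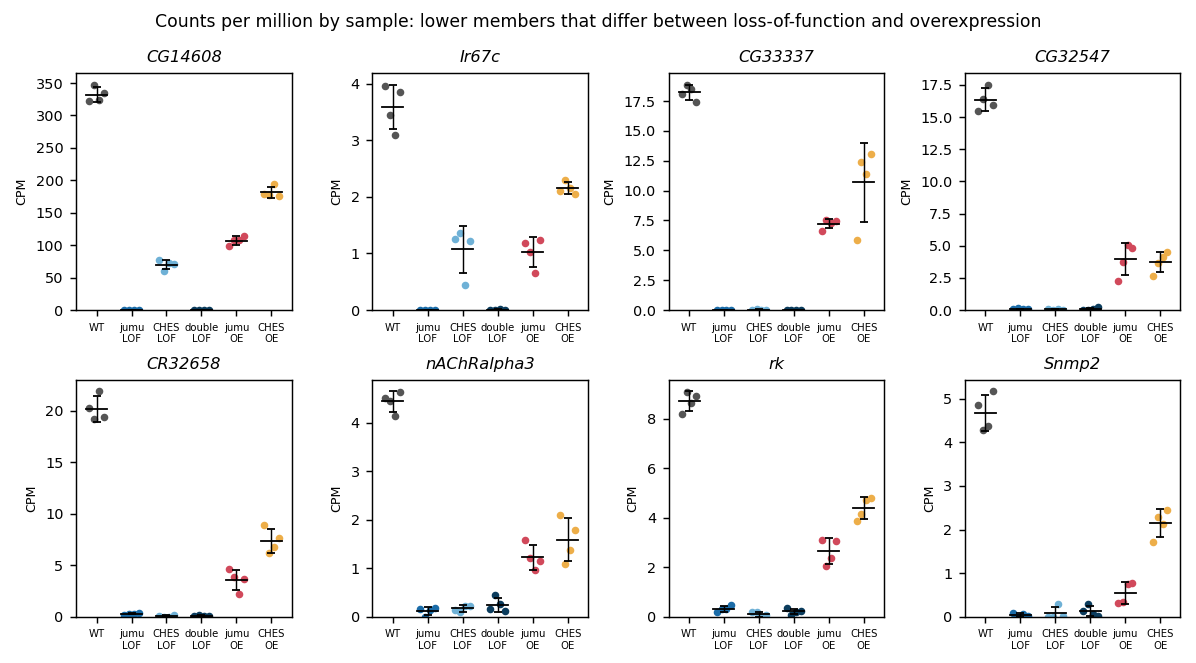
CPM of 8 lower members in each sample (points), with the mean (line) and SD (bar) of the 4 samples of each genotype (WT, wild-type; LOF, loss-of-function; OE, overexpression). CG14608 and Ir67c were near 0 in jumu loss-of-function and the double, and CG33337, CG32547, CR32658, nAChRalpha3, rk and Snmp2 were near 0 in all 3 loss-of-function genotypes, while the overexpression samples lay between these and wild-type.

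CG33757, CG44422 and Dscam2 were under 10% of wild-type in CHES-1-like loss-of-function alone. Dscam2, an immunoglobulin superfamily adhesion protein of neurons, was at 2.21 ± 0.402 CPM in wild-type, 0.214 ± 0.0959 with CHES-1-like lost, and 0.379 ± 0.115 to 0.774 ± 0.305 in the other genotypes. The remaining lower members lost a part of their level in each genotype. Camta, a calmodulin-binding transcription factor, was at 68.9 ± 2.95 CPM in wild-type, between 22.9 ± 3.84 and 29.3 ± 2.22 CPM in 4 genotypes and at 40.3 ± 5.74 in CHES-1-like overexpression. knrl, the knirps-like nuclear receptor, was at 12.0 ± 1.04 CPM in wild-type and between 4.70 ± 1.11 and 7.69 ± 0.73 elsewhere. Pvf1, a ligand related to platelet-derived and vascular endothelial growth factors, was at 5.38 ± 0.176 CPM in wild-type and between 1.40 ± 0.921 and 2.34 ± 0.438 elsewhere. grass, a serine protease upstream of Toll, was 1 of 4 lower members with the smallest mean in CHES-1-like overexpression, at 11.3% of wild-type against 25.2% to 47.7% in the other genotypes.

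The comparison of overexpression with loss-of-function of the same gene left wild-type out. A gene was called at a false discovery rate below 0.1 with a log2 difference beyond 0.5 in either direction. Between jumu overexpression and jumu loss-of-function, 26 of the 43 lower members were called higher in overexpression, as were 10.7% of all genes tested. Only 1, Dscam2, was called lower, as were 9.02% of all genes. Called or not, the difference was positive in 37 lower members and negative in 6. The median log2 difference was 1.28 over the lower members, or 1.27 with every mean set no lower than the 3-count limit of its genotype, against 0.0018 over all genes tested. Higher members are left out of these counts, since many were selected through the genotype where they were high.

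Between CHES-1-like overexpression and CHES-1-like loss-of-function, 24 lower members were called higher in overexpression and 3 were called lower. Called or not, the difference was positive in 34 lower members and negative in 9. The background of this comparison was larger, at 21.5% higher and 18.5% lower. The median of the lower members was 0.93, or 0.99 with the 3-count limit, against 0.052 over all genes tested. In both comparisons 18 lower members were called higher in overexpression. Dscam2 alone among the lower members was called in opposite directions, at -1.05 (SE 0.35, adjusted p 0.0329, edgeR) for jumu and 1.39 (SE 0.41, adjusted p 0.0085, edgeR) for CHES-1-like. 

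With the genotypes pooled, the mean of the 2 overexpression genotypes was compared with the mean of the 3 loss-of-function genotypes. By the same limits, 27 of the 43 lower members were called higher in overexpression and 1, grass, was called lower. Of all genes tested, 12.4% and 10.4% were called. Called or not, the difference was positive in 38 lower members and negative in 5. CG14608 differed by 6.33 (log2, SE 0.13, adjusted p 6.17e-21, edgeR), CG13003 by 1.70 (SE 0.09, adjusted p 2.87e-13, edgeR) and na by 0.67 (SE 0.08, adjusted p 3.07e-07, edgeR). In 12 lower members all 8 overexpression samples lay above all 12 loss-of-function samples, as they did in 1.43% of all genes that reached 2 CPM, and in 0 the order was reversed, against 2.56% of all genes. When samples were scaled by their totals alone rather than with TMM factors, the share of all called genes that were higher in overexpression rose from 54.2%, 53.7% and 54.4% to 76.3%, 86.4% and 71.4% in the 3 comparisons. The calls among the 43 lower members went from 26 higher and 1 lower to 27 and 0, from 24 and 3 to 32 and 1, and from 27 and 1 to 29 and 1.

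Among the marker lists of other cells, the neural, epidermal, germline, endoderm and yolk sums overlapped between overexpression and loss-of-function samples. The hemocyte and tracheal sums did not overlap. The summed level of 8 hemocyte markers was 2066 to 2411 CPM in CHES-1-like overexpression samples and 3762 to 4043 in jumu overexpression samples, and 4482 to 7136 CPM in the loss-of-function samples, with 4942 to 5265 in wild-type. Of its defining members, He was under 1 CPM in every genotype, Hml was under 1 CPM in wild-type and CHES-1-like overexpression and NimC1 was under 1 CPM in 4 genotypes. The summed level of 4 tracheal markers was 38.4 to 42.9 CPM in overexpression, 47.3 to 109 CPM in loss-of-function and 51.7 to 56.0 CPM in wild-type, with dys under 1 CPM throughout. The part of these cells in the difference between overexpression and loss-of-function was not tested. The stage written in the overexpression labels cannot be told apart from overexpression.

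Members were found on chromosome X more often than on any other arm. By the Ensembl annotation of the Release 6 genome, 27 of the 75 were on X, 17 on 3L, 16 on 3R, 8 on 2R and 7 on 2L, and 0 on chromosome 4. X held 41.9% of the 43 lower and 28.1% of the 32 higher members, against 16.8% of the positioned genes that reached 2 CPM. This is a description of a set chosen by its values, and no test was run on it.

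**Figure D5:**
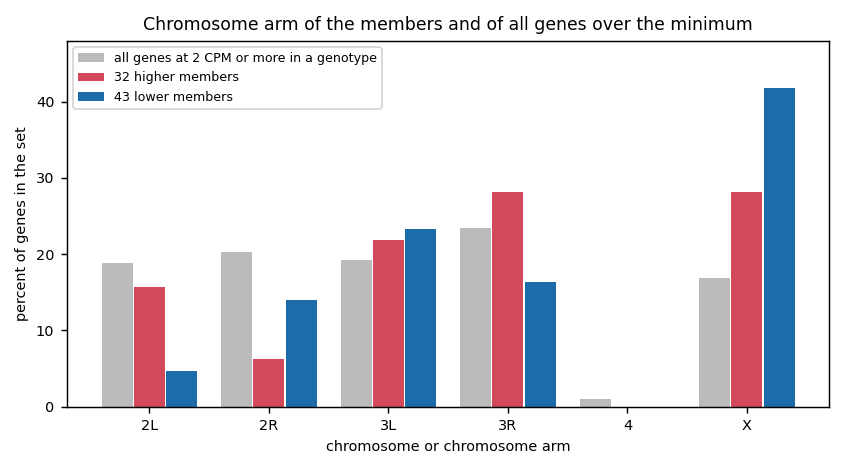
Percent of all positioned genes that reached 2 CPM (grey), of the 32 higher members (red) and of the 43 lower members (blue) on each chromosome or chromosome arm. X held 16.8%, 28.1% and 41.9% of these sets.

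Members also lay next to each other. Among genes that reached 2 CPM, 11 pairs of members were immediate neighbours, which was noticed after the values were known, and in each pair both moved in the same direction. On the lower side they were Camta and CG33757 (2R, 9446046 to 9480076, where CG33757 lies inside Camta on the opposite strand), Ir67b and Ir67c (3L, 10429689 to 10434105), CG10182 and CG33337 (3R, 23587120 to 23592769), CG42594 and CG12681 (X, 4840833 to 4906575, where CG12681 lies inside CG42594 on the same strand), CG44422 and Ir10a (X, 11219379 to 11311208), CR32657 and CR32658 (X, 12087211 to 12092272), and CG13404 and na (X, 14264737 to 14277416). On the higher side they were CR45371 and CG7778 (2L, 8343320 to 8351112), CG12885 and Gr98b (3R, 27520866 to 27543888), Seipin and brv3 (X, 2619799 to 2624575), and CG14417 and CG3588 (X, 2875428 to 2924426). The antisense gene CR45371 and CG7778 were both highest in jumu overexpression, at 2.77 ± 0.422 and 3.73 ± 1.08 CPM. CG10182 was lower than wild-type in the same pattern as CG33337, with 2.47 ± 0.335 CPM in wild-type, 0.885 ± 0.28 and 0.907 ± 0.188 in the overexpression genotypes and at most 0.021 ± 0.03 in the loss-of-function genotypes. Of the 75 members, 33 overlap another annotated gene, 11 of them on the same strand, and their counts are uncertain where reads could be given to either gene.

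Of 237 chemoreceptor and odorant-binding genes, 30 reached 2 CPM. Of these 30, 16.7% were members, beside 0.883% of all genes that reached 2 CPM. Gr98b and Ir64a were higher and Ir10a, Ir67b and Ir67c lower. Gr98b and Ir64a reached 2 CPM only through genotypes where they were high, and Ir67b and Ir67c are neighbours. No test was run, and no enrichment is read from this share. The 11 genes used as markers of transgenes and fly stocks, of which 8 reached 2 CPM, held 0 members, a list too short to read anything from. White, w, which many transgenes carry as a marker, was at 64.5 CPM in wild-type, 392 in jumu loss-of-function, 63.5 in CHES-1-like loss-of-function, 312 in the double, 25.7 in jumu overexpression and 30.3 in CHES-1-like overexpression, and so was not on the same side of wild-type by the limit of the rule.

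The limit of the rule divided genes with like values. On the higher side the members nearest to it were MCTS1, Idgf2 and CG17129, whose least-shifted genotype was at 1.56, 1.62 and 1.65 times wild-type, and the genes just outside were NPFR, 5SrRNA:CR33382 and Sod at 1.497, 1.49 and 1.49. On the lower side CG31030, S-Lap2 and CG3303 were inside at 0.664, 0.66 and 0.658, and Awh, CG13457 and CR45224 outside at 0.681, 0.689 and 0.69. NPFR had 4.58 CPM in CHES-1-like loss-of-function, against 0.0414 CPM in wild-type and at most 0.0976 CPM in the other genotypes, so that a few reads decided its place outside the rule.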

How the data were processed

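The authors prepared stranded total RNA libraries from sorted cells, mapped reads to the FlyBase dmel_r6.05 annotation with TopHat2 at default parameters, and deposited whole-number counts per gene without normalization. The submitters' processing notes also name SAMtools and HTSeq; whether counting used the strand is not given in the sources used here. Columns were matched to samples by name, and 0 columns of values were left without a sample. No pair of the 36 replicate pairs of a genotype had identical counts.

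CPM were computed with TMM factors over all 24 samples in R 4.3.3 with edgeR 4.0.16. The study calls its wild-type and jumu loss-of-function samples biological replicates. For the other genotypes the labels only number the samples, and p-values then measure the spread between samples, which may be technical. Levels are means ± SD of 4 samples. The 20 non-wild-type samples were fitted with edgeR's quasi-likelihood test, and p-values were adjusted by Benjamini-Hochberg over all 17476 genes. The lowest 30% by average log2 CPM were then excluded, as in the study, leaving 12234 genes, and all 75 members passed this filter. DESeq2 1.42.0, other scalings, filters, limits and leaving out samples were alternatives. On simulated counts with 200 changed genes of 12234, the test across the 5 genotypes recovered 200 and called 14 others, and that of jumu overexpression against jumu loss-of-function recovered 198 and called 13 others. Counting intervals and the 3-count limit cover counting error only.

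The members and lists were chosen with earlier results of these data known. Named genes were the 12 members per direction whose least-shifted genotype was furthest from wild-type, the 5 with the highest group mean, the 3 on either side of the limit, those with the smallest or largest p and differences, list members and neighbours. Positions are from the Ensembl annotation BDGP6.54 (release 115) of Release 6, which held 73 of the 75 identifiers, and the 2 others (Camta and nvd) were matched by symbol.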

Additional observations from a re-analysis of the deposited data

Results flagged for a closer look

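In 192 groups of 4 samples (32 named genes in 6 genotypes), 12 had 1 sample far from the other 3 on the log2 scale, where chance alone gives about 1 in 20, or 9.6. Replicate 2 of the double loss-of-function stood apart in 4 genes. There MCTS1 was at 35.2 CPM (others 51.4 to 52.3), Idgf2 at 15.8 CPM (others 22.1 to 23.04), CG43759 at 45.8 CPM (others 30.6 to 31.9) and Camta at 28.6 CPM (others 20.5 to 21.6). Each of these values lay nearer to wild-type than those of the other 3 replicates. Without this sample, 69 in place of 66 members differed among the 5 genotypes.

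The other 8 were CG43759 in CHES-1-like overexpression replicate 1 at 51.2 CPM (others 36.5 to 37.8), CG14608 in CHES-1-like overexpression replicate 3 at 194 CPM (others 175 to 178), CG17129 in wild-type replicate 3 at 2.05 CPM (others 3.6 to 3.71) and CG3303 in double loss-of-function replicate 1 at 12.4 CPM (others 15.8 to 16.4). The rest rested on 0 to 5 counts: CG13794 in CHES-1-like loss-of-function replicate 1 at 0.0237 CPM, CG12692 in jumu loss-of-function replicate 3 at 0.0751 CPM and in double loss-of-function replicate 1 at 0.0342 CPM, and nAChRalpha3 in jumu loss-of-function replicate 2 at 0 CPM.

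Genotypes on the same side of wild-type differed from each other by a direct test in 53 members for jumu overexpression against jumu loss-of-function, in 42 members for the CHES-1-like pair and in 49 members for the mean of the overexpression against the mean of the loss-of-function genotypes. Over all 12234 genes tested, 2411, 4895 and 2788 were called in these comparisons. Of the member counts, 27, 27 and 28 were lower members. The rest were higher members, many of which reached 2 CPM only through a genotype where they were high. For those such a difference was fixed by the selection, and nothing is read from their counts.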

How the results depend on the processing

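The number of members depended on the limits of the rule. With a highest mean of at least 1 CPM there were 58 higher and 70 lower members, with at least 5 CPM 16 and 21, and with a fold of 2 21 and 21. Adding 0.1 CPM to each mean, an alternative chosen after seeing the data, left 18 higher and 42 lower. DESeq2 size factors gave 35 and 43 and library totals 29 and 57, of which 27 and 40 were among the 32 and 43 reported. Library totals moved the median of all genes by up to -0.52 (log2, CHES-1-like loss-of-function). Leaving out 1 sample at a time gave 31 to 45 higher and 40 to 47 lower members, and the 45 came without wild-type replicate 1 and held all 32 reported. The same gave 65 to 69 members that differed among the 5 genotypes, 49 to 53 for the jumu pair, 40 to 44 for the CHES-1-like pair and 47 to 51 for the pooled contrast. The 7 other alternatives gave 64 to 72, 51 to 53, 41 to 48 and 48 to 53. With the replicate number as a replicate block these counts were 67, 53, 43 and 49, and folds within each number gave 16 higher and 43 lower members. Same-numbered samples of different genotypes correlated in their deviations between -0.451 and 0.669 (60 pairs, 37 over 0.1). All 4 numbers were over 0.1 in 3 of 15 pairs of genotypes but not for either gene's overexpression against its loss-of-function nor in any pair with wild-type, and 15 of 24 samples correlated best with their own number, so that some shared source is hinted at by the data but not given by the labels. Members near 0 in a genotype are limited by depth, since 10 higher and 8 lower members had at most 3 counts over the 4 samples of some genotype.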

Other observations

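Some members carry only a number as symbol in the deposited counts, as do many other genes. Of the 75, 34 have a CG number and 4 a CR number, beside 3198 and 333 of the 8489 genes that reached 2 CPM. Members were 1.06% of these CG genes and 1.2% of these CR genes. Both shares are near the 0.883% of all genes that reached 2 CPM, and nothing is read from them. The annotation names some of the 34, such as boil for CG12681 and shop for CG7280. It lists 71 members as protein coding and 4 as noncoding. Among the genes that reached 2 CPM, 1 of 10 methuselah-like receptors (mthl8), 1 of 27 cytochrome P450 genes (Cyp318a1), 1 of 7 cuticle protein genes (Cpr78Cb, lower, 4.99 ± 0.389 CPM in wild-type and 37.3% to 57.9% of it elsewhere) and 1 of 4 mucins (Muc55B) were members. The glutathione S-transferases, UDP-glycosyltransferases, ribosomal protein genes, small nucleolar RNA genes and serpins held 0. The germline-associated s-cup was lower in all genotypes, at 3.11 ± 0.418 CPM in wild-type and 40.0% to 65.2% of it elsewhere. Syngr, the synaptic vesicle protein synaptogyrin, was at 3.63 ± 0.323 CPM in wild-type and 35.7% to 63.6% of it elsewhere.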
